A study of Mus musculus with 2 samples.

Results

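In all, 40 genes that encode centromere, kinetochore and spindle checkpoint proteins were examined in unstimulated mouse macrophages. They were taken by symbol from a list of 40 names, all 40 of which matched a row among the 22060 genes of the deposited count table. RNA was sequenced from macrophages that had been grown out of the marrow of C57BL/6 mice aged 8 weeks over 7 days in M-CSF, the cytokine that turns marrow precursors into macrophages and sustains their division. Group WT is wild type and group T403A carries STAT2 with alanine in place of threonine 403, STAT2 being a transcription factor of the type I interferon response. Neither group was treated, each consists of 1 library, and the number of animals behind each library is not given in the sources used here. With 1 library per group no test is possible, so each statement compares the libraries and not the genotypes.

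The kinetochore is the protein structure that joins a chromosome to spindle microtubules. It is built on chromatin that holds the histone variant CENP-A. A constitutive layer of CENP proteins binds there and recruits the KNL1, MIS12 and NDC80 complexes, of which NDC80 grips the microtubule and is reinforced by the SKA complex. Kinetochores without proper attachment assemble BUB and MAD proteins into an inhibitor of the anaphase-promoting complex (APC/C), the spindle assembly checkpoint. Many of these genes are transcribed mainly in cycling cells late in the cell cycle, and macrophages in M-CSF culture can divide. In bulk RNA such as this, fewer cells of a type and less RNA per cell cannot be told apart.

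The count totals were 16033032 in WT and 18658381 in T403A. Levels are given as CPM, counts scaled to the size of each library with TMM factors. The Stat2 transcript was 4.46-fold less abundant in T403A (95% counting interval 4.22 to 4.71), at 84.4 CPM against 376 CPM, which does not check the labels, because a substitution need not change a transcript's level. Of 10 macrophage markers all had reads, at least 863 counts in WT and 1043 in T403A, and their summed level was 50913 CPM and 39448 CPM. By the 2-fold rule used below, 4 of the 10 were lower in T403A and 1 was higher, with a median log2 ratio of -0.71. The ends of that range, named after their values were seen, were Fcgr1 with 6874 and 1043 counts and Mrc1 with 863 and 5876 counts. Lists of cell types that a marrow culture could also hold were close to empty: their summed levels ran from 0.200 CPM (mast cells and basophils) to 20.5 CPM (neutrophils) in WT and from 0.602 to 12.8 CPM in T403A. Haematopoietic progenitors, a dividing cell type, had 10 markers with a summed level of 3.40 CPM in WT and 2.01 CPM in T403A, and Elane was at 0 counts in both. Of the 3 progenitor markers with a summed count of at least 20, Kit was higher in T403A (4 and 23 counts) and the other two were lower, Cd34 with 15 and 5 counts and Myb with 21 and 7. At 0 in both were also Ly6g of the neutrophil list, Hba-a1 of the erythroid list, Cd3d, Cd3e, Ncr1 and Nkg7 of the lymphocyte list, Lum of the stromal list and Fcer1a of the mast cell list. Of the 6 neutrophil markers with 20 or more counts in all, 3 had lower levels in T403A and 3 had higher levels. The lower ones were Lcn2 with 176 and 25 counts, Camp with 22 and 10 and S100a8 with 31 and 25. The higher ones were S100a9 with 28 and 77 counts, Ltf with 25 and 64 and Ngp with 24 and 49. Lcn2 made up 11.7 of the 20.5 CPM of that list in WT and 1.25 of the 12.8 CPM in T403A. The part of these marker differences in the results was not tested.

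Most of the 40 genes were higher in the T403A library, and none was lower by the same rule. A gene was called when its fold was at least 2 and the exact 95% counting interval of the fold excluded 1. By that rule 28 of 40 genes were higher, against 7.21% of the 11199 measured genes, those whose counts in the pair of libraries summed to 20 or more. None of the 40 was lower, against 6.08% of those genes. The 40 genes were chosen with earlier results of these data known, so both contrasts are descriptions. The median log2 ratio was 2.16, a 4.48-fold difference, and that of all measured genes was 0.01. Without TMM scaling, the share of all counts that fell on the 40 genes was 0.0297% in WT, with a 95% Wilson interval from 0.0289 to 0.0305%. In T403A the share was 0.0610%, with an interval from 0.0599 to 0.0622%. All 40 reached the summed count of 20, but 20 of them had fewer than 20 counts in WT and 2 had fewer in T403A, so many passed through the library in which they were higher.

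Of the 12 genes that were not called, 6 had intervals wholly above 1 (Cenpl, Cenpo, Dsn1, Pmf1, Mad1l1 and Zw10) and 3 had intervals wholly below 1 with TMM scaling (Cenpt, Zwint and Bub3). The other 3, Cenpc1, Mis12 and Cenpw, had intervals that contained 1 with the same scaling. With total library size the log2 ratio of Mis12 was 0.23 instead of 0.04, and that of Cenpt was -0.11 instead of -0.30. The grouping is therefore given for TMM scaling alone. Every complex except NDC80, SKA, the shugoshins and the group of Cenpe, Cenpf and Spag5 held genes of both kinds, called and not called. These intervals cover counting error alone, without the variation between animals, cultures or library preparations, and reads without molecular identifiers are not independent molecules.

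**Figure D1:**
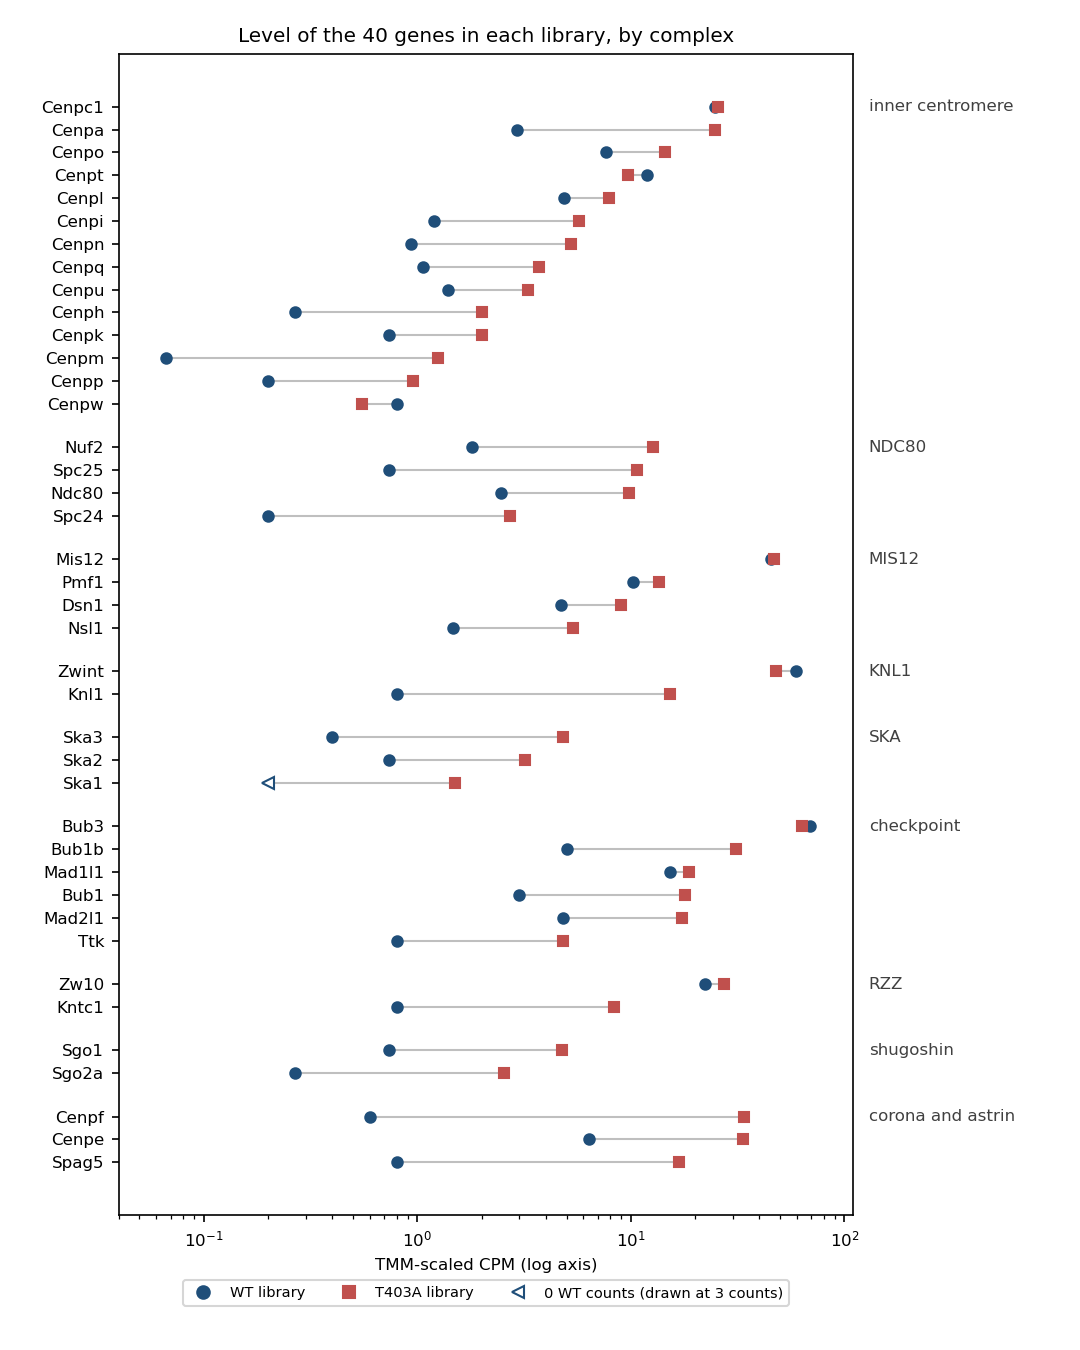
TMM-scaled CPM (log axis) of each of the 40 genes in the WT library (circles) and the T403A library (squares), grouped by complex, with 1 library per group and no replicates. Cenpf runs from 0.600 to 34.0 CPM, the symbols of Mis12 and Cenpc1 overlap, and Ska1 with 0 WT counts is drawn at the level of 3 counts.

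Promoters are shown for the 6 called genes with the highest lower bounds of the fold among those with a window, and for the 3 genes with the most counts that were not called, because genes of late cell cycle phases often share short elements near their start. The cell cycle genes homology region, TTTGAA, is known to recruit the DREAM and MYB-MuvB complexes, and the CCAAT box binds NF-Y. Of the 40 genes 37 had a window in the RefSeq promoter table (GRCm38.p6, 250 bases before to 50 after a start). In the sequences below, written 5′ to 3′ on the gene's strand from 120 bases before the start to 30 bases from it onward, capitals mark TTTGAA or CCAAT on either strand. The first 6 genes were called higher, and Bub3, Zwint and Mis12 were not. The table holds more than 1 window for Bub3, and the one nearest to the annotated gene start is shown. Of the 9, Knl1 has its TTTGAA at base 32, just past the end of the stretch shown, Bub3 has the motif although it was not called, and Zwint and Mis12 have none in their windows.

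Cenpf (chr1:189688057-189688206, minus strand): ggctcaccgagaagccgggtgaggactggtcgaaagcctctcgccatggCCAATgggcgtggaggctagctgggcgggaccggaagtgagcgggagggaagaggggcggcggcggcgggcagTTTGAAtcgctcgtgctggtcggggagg
Spag5 (chr11:78301471-78301620, plus strand): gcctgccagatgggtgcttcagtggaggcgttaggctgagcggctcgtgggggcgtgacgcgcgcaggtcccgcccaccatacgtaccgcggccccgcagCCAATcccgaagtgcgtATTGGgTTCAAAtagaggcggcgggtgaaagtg
Knl1 (chr2:119046999-119047148, plus strand): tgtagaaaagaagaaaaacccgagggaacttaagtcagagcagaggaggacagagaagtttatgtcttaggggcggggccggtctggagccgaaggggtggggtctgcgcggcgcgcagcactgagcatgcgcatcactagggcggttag
Spc25 (chr2:69206184-69206333, minus strand): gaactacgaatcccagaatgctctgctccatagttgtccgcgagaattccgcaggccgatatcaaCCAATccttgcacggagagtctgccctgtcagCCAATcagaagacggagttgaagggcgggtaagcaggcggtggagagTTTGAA
Cenpa (chr5:30666766-30666915, plus strand): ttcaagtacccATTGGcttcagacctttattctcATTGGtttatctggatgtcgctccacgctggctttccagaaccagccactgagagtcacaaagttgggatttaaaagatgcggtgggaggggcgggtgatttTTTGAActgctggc
Kntc1 (chr5:123749606-123749755, plus strand): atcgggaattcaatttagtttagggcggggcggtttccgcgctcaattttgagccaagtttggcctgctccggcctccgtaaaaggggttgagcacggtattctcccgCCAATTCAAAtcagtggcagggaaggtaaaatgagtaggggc
Bub3 (chr7:131560250-131560399, plus strand): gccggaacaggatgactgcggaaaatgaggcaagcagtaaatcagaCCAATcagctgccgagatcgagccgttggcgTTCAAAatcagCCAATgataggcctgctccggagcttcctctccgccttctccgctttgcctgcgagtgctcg
Zwint (chr10:72654726-72654875, plus strand): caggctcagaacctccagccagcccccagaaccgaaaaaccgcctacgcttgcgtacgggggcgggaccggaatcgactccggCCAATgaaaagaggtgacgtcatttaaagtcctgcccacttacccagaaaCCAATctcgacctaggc
Mis12 (chr11:71019491-71019640, plus strand): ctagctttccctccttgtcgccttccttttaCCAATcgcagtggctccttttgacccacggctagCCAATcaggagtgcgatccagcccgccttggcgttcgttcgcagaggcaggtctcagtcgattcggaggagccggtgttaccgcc

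TTTGAA, searched on both strands, was found in the windows of 16 of the 37 genes, and 17.9% of the table's 32851 windows hold it. It was in 11 of the 25 called genes with a window and in 5 of the 12 genes that were not called, so over the whole window the called and the other genes had it about equally often. Within 50 bases of the start, a narrower range chosen after the positions had been seen, the motif was in 11 of 25 called genes, 2 of 12 others and 4.94% of all windows. CCAAT on either strand was in 19 of 25 called genes, 7 of 12 others and 37.4% of windows, and within 50 bases in 13 of 25, 6 of 12 and 13.6%. The E2F sequences TTCCCGC and TTGGCGC, both strands, were in 6 of 25, 5 of 12 and 6.81%, and within 50 bases in 4 of 25, 3 of 12 and 2.54%. In the narrower range the share was thus higher in called genes for TTTGAA, about equal for CCAAT and lower for E2F, none of which was tested. Some genes have more than 1 window, any of which counted, and in Kntc1 the last base of CCAAT is also the first base of the TTTGAA match on the other strand. A match in these letters is a description and not a binding site.

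In the inner centromere layer 9 of 14 genes were called higher, with a median log2 ratio of 1.59. Cenpa, which encodes the histone H3 variant that marks centromeric chromatin (chromosome 5, 30666777 to 30674830), had 44 counts in WT and 496 in T403A. Its level was 2.93 CPM and 24.9 CPM, an 8.48-fold difference (6.22 to 11.8). Cenpc1, whose product binds that nucleosome and anchors the outer kinetochore, had 373 and 508 counts, 24.9 and 25.5 CPM, and its fold of 1.02 (0.895 to 1.17) held 1 within its interval. The histone variant gene thus stood apart between the libraries, and the gene for its binding partner was within 1.17-fold by counting error.

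The CENP-H, CENP-I, CENP-K and CENP-M proteins form 1 subcomplex of this layer, and all 4 genes were called. Cenpi had 18 and 114 counts, 4.76-fold higher (2.88 to 8.33), and Cenph had 4 and 40, 7.52-fold higher (2.72 to 28.9). Cenpk had 11 and 40 counts, 2.74-fold higher (1.38 to 5.91), though Ppwd1, on the opposite strand, shares exonic sequence with it. Cenpm rested on 1 WT count against 25, which gives 18.8-fold with an interval of 3.08 to 772, so its size is not known at this depth.

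CENP-L and CENP-N, which form a pair that contacts the CENP-A nucleosome, behaved unequally. Cenpn had 14 and 105 counts, 5.64-fold higher (3.22 to 10.7), whereas Cenpl had 73 and 158, 1.63-fold higher (1.23 to 2.18). Their intervals did not overlap. The partners CENP-O, CENP-P, CENP-Q and CENP-U were all above 1. Cenpq had 16 and 74 counts, 3.48-fold higher (2.01 to 6.40), and Cenpu had 21 and 66, 2.36-fold higher (1.43 to 4.07). Cenpp had 3 and 19 counts, 4.76-fold (1.40 to 25.1). Cenpo had 115 and 287 counts, 1.88-fold (1.51 to 2.35), and did not reach 2-fold. Exons of these 4 genes overlap those of opposite-strand genes, Adcy3 and Ptrhd1 for Cenpo, Ippk and Aspn for Cenpp, Mut for Cenpq and Primpol for Cenpu, and the strand setting of the counts is not given in the sources used here.

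The histone fold proteins CENP-T and CENP-W form a second bridge to the outer kinetochore, and neither gene was called. Cenpt had 179 and 193 counts, 11.9 and 9.68 CPM, 1.23-fold lower with an interval of 1.00 to 1.52. A Tsnaxip1 exon overlaps it on the opposite strand. Cenpw had 12 and 11 counts, 1.45-fold lower, with an interval from 3.63-fold lower to 1.71-fold higher that leaves its direction undetermined.

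The 4 genes of the NDC80 complex, the microtubule coupler, were all called, with a fold of 6.91 for their summed counts (5.46 to 8.84). The complex is a rod with the NDC80 and NUF2 proteins at its microtubule end and SPC24 and SPC25 at its centromere end. Ndc80 (chromosome 17, 71496100 to 71526857) had 37 counts in WT and 196 in T403A, 2.47 and 9.83 CPM, 3.99-fold higher (2.79 to 5.83). Nuf2 had 27 and 254 counts, 1.80 and 12.7 CPM, 7.08-fold higher (4.75 to 11.0). Spc25 (chromosome 2, 69193895 to 69206194) had 11 and 212 counts, 0.733 and 10.6 CPM, 14.5-fold higher (7.94 to 29.5), and Spc24 had 3 and 54, 13.5-fold (4.39 to 67.7). The intervals of Spc25 and Ndc80 did not overlap, so the subunits differed in fold beyond counting error. Per length, as TPM (counts per length, scaled to the same total in each library), the 4 subunits spanned 0.234 to 1.1 TPM in WT, a 4.89-fold range, and 3.82 to 12.1 TPM in T403A, a 3.17-fold range.

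MIS12 complex genes differed less, since 1 of 4 was called. The complex links the constitutive layer to NDC80 and KNL1. Mis12 (chromosome 11, 71019611 to 71027371) had 682 and 929 counts, 45.5 and 46.6 CPM, a fold of 1.02 (0.927 to 1.13), though Derl2, on the opposite strand, shares exonic sequence with it. Pmf1 had 154 and 270 counts, 1.32-fold higher (1.08 to 1.62), and Dsn1 had 71 and 180, 1.91-fold higher (1.44 to 2.55). Nsl1, the called gene, had 22 and 107 counts, 1.47 and 5.37 CPM, 3.66-fold higher (2.30 to 6.08). The summed counts of the 4 genes were 1.20-fold higher (1.11 to 1.31), a value set mostly by Mis12, without which it was 1.70-fold.

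Of the genes for the partners KNL1 and ZWINT, the first was called and the second was not. Knl1, the scaffold on which BUB proteins assemble (chromosome 2, 119047119 to 119105501), had 12 counts in WT and 305 in T403A. Its level was 0.800 and 15.3 CPM, 19.1-fold higher (10.8 to 37.4), and it ranked 14th of the 11199 measured genes by the lower bound of its fold. Zwint, which binds KNL1 and helps to recruit the RZZ complex, had 889 and 958 counts, 59.3 and 48.0 CPM, 1.23-fold lower (1.12 to 1.35). This difference depends on the scaling: the log2 ratio of Zwint was -0.30 with TMM and -0.11 with total library size. In WT, Zwint was at 40.3 TPM and Knl1 at 0.282 TPM, a 143-fold range per length, and in T403A at 39.3 and 6.50 TPM, a 6.05-fold range.

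All 3 genes of the SKA complex, which follows the ends of spindle microtubules, were called, on low WT counts. Ska1 had 0 counts in WT and 30 in T403A. A count of 0 allows up to 3 counts, or 0.200 CPM. Against that floor Ska1 was 7.52-fold higher, and the exact lower bound of its fold was 5.75. Ska3 had 6 and 96 counts, 0.400 and 4.81 CPM, 12.0-fold higher (5.33 to 33.6), and Ska2 had 11 and 64, 0.733 and 3.21 CPM, 4.38-fold higher (2.29 to 9.20). Exons of Ska3 overlap those of Sap18 on the opposite strand, and exons of Ska2 those of a predicted gene model. The summed counts of the complex, 17 and 190, gave 8.41-fold (5.11 to 14.7).

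**Figure D2:**
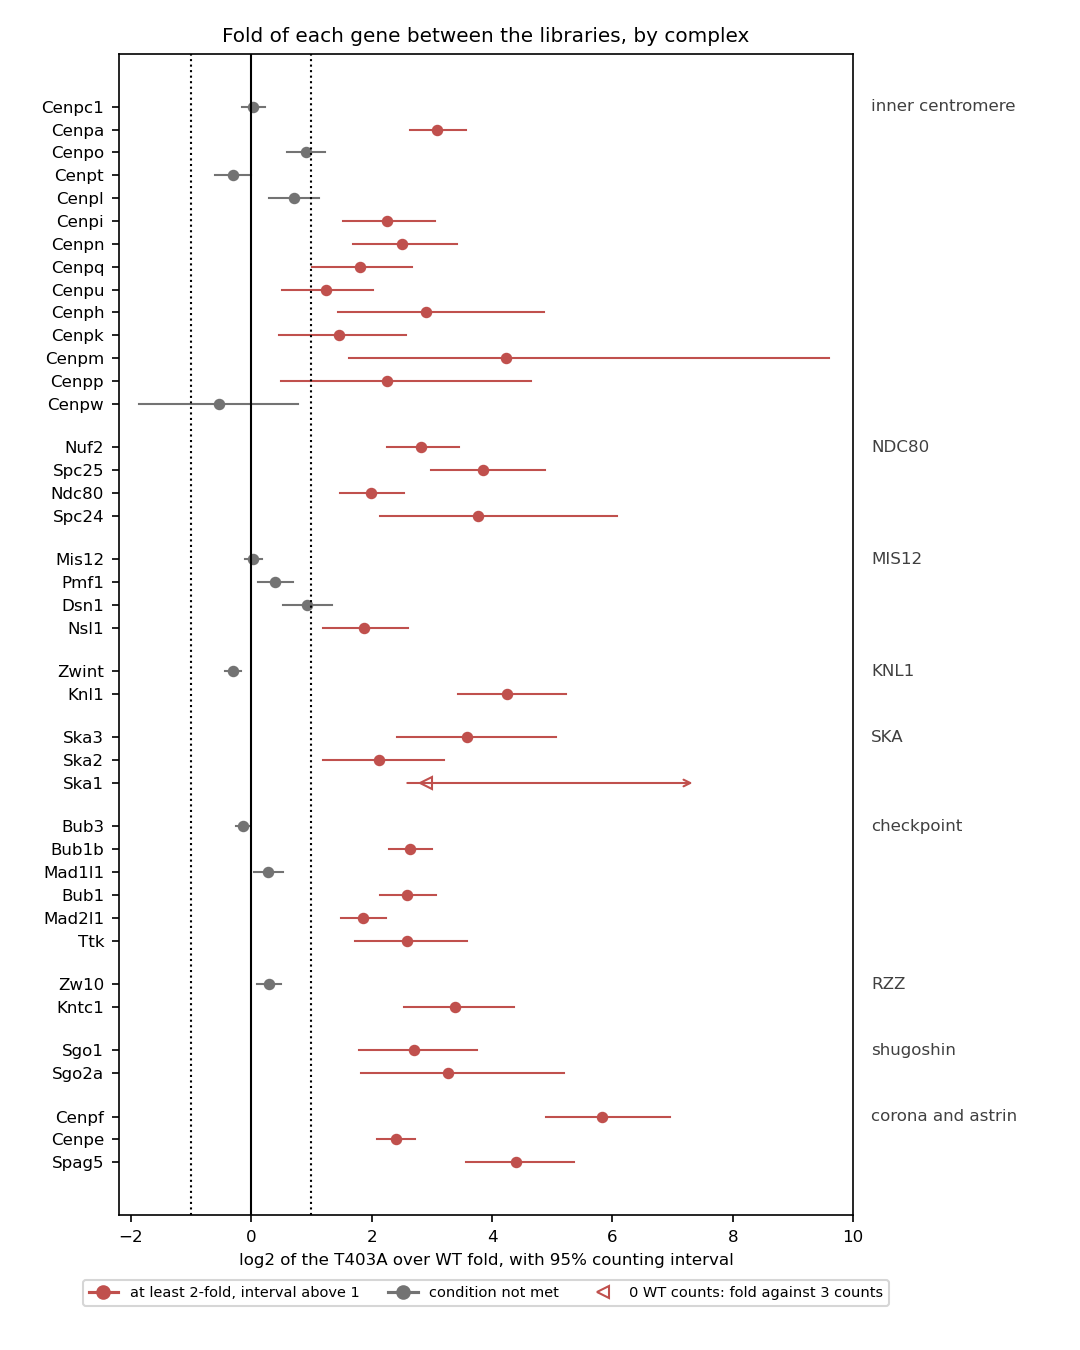
Log2 of the T403A over WT fold of each gene (points) with its exact 95% counting interval (lines), grouped by complex; the solid line marks no difference and the dotted lines mark 2-fold. The 28 called genes lie to the right of the dotted line at 1, the other 12 lie between the dotted lines, and Ska1 is drawn at its fold against 3 counts with an arrow from its exact lower bound.

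Among 6 checkpoint genes 4 were called, with a median log2 ratio of 2.20. Bub1, the kinase that starts checkpoint assembly on KNL1 (chromosome 2, 127801122 to 127831865), had 45 and 359 counts, 3.0 and 18.0 CPM, 6.00-fold higher (4.39 to 8.38). Bub1b, which encodes the inhibitor BUBR1 (chromosome 2, 118598211 to 118641591), had 75 and 622 counts, 5.0 and 31.2 CPM, 6.24-fold higher (4.90 to 8.04). Ttk, the MPS1 kinase at the head of the pathway, had 12 and 96 counts, 0.800 and 4.81 CPM, 6.02-fold higher (3.29 to 12.1). The folds of these 3 kinase-related genes lay within each other's intervals.

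Of the remaining checkpoint genes 1 of 3 was called. Mad2l1, the MAD2 protein that is converted at kinetochores into an APC/C inhibitor, had 72 and 346 counts, 4.80 and 17.4 CPM, 3.62-fold higher (2.80 to 4.73). Mad1l1, the MAD1 platform on which that conversion takes place, had 230 and 372 counts, 15.3 and 18.7 CPM, 1.22-fold higher (1.03 to 1.44), and a predicted gene model on the other strand shares exonic sequence with it. Bub3, the adaptor that carries BUB1 and BUBR1 to KNL1, had 1039 and 1258 counts, 69.3 and 63.1 CPM, 1.10-fold lower (1.01 to 1.19). With scaling by total library size the Bub3 ratio was above 1, so no direction is given for it. Summed over the 6 genes the fold was 1.56 (1.46 to 1.66), and 3.11 without Bub3.

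In the RZZ complex, which brings MAD1 and dynein to the kinetochore, the listed genes Kntc1 and Zw10 separated in the same way. Kntc1, which encodes the ROD subunit (chromosome 5, 123749716 to 123821593), had 12 and 167 counts, 0.800 and 8.37 CPM, 10.5-fold higher (5.84 to 20.7). Zw10, whose product also acts in membrane traffic, had 334 and 545 counts, 22.3 and 27.3 CPM, 1.23-fold higher (1.07 to 1.41). The shugoshins, which protect centromeric cohesin until anaphase, were both called. Sgo1 had 11 and 95 counts, 6.50-fold higher (3.47 to 13.5), and Sgo2a had 4 and 51, 9.59-fold higher (3.53 to 36.5), though Kctd18 shares exonic sequence with it on the opposite strand.

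Cenpe, Cenpf and Spag5 encode large proteins of the kinetochore's outer corona and of the astrin complex, and all 3 were called. Cenpf, a dynein-binding corona protein that accumulates in late interphase (chromosome 1, 189640606 to 189688086), had 9 counts in WT and 678 in T403A. Its 56.7-fold difference (29.7 to 124) placed it 2nd of the 11199 measured genes by the lower bound of the fold. Spag5, or astrin, which stabilises attachments at the spindle (chromosome 11, 78301529 to 78322457), had 12 and 336 counts, 0.800 and 16.8 CPM, 21.1-fold higher (11.9 to 41.2), and ranked 10th. Cenpe, the kinesin that carries chromosomes to the spindle equator (chromosome 3, 135212537 to 135273611), had 96 and 672 counts, 6.40 and 33.7 CPM, 5.27-fold higher (4.25 to 6.59). Its interval lay wholly below those of Cenpf and Spag5. Per length the 3 genes spanned 0.117 to 2.24 TPM in WT, a 19.1-fold range, and 8.00 to 14.2 TPM in T403A, a 1.77-fold range.

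Ordered per length, the most abundant genes of the 40 in the WT library were largely those that were not called, and less so in T403A. In WT the order was led by Mis12 (45.7 TPM), Zwint (40.3), Bub3 (29.8), Zw10 (17.5), Cenpc1 (13.3), Mad1l1 (12.7) and Cenpt (9.87). In T403A the first 3 were the same, Mis12 (56.3 TPM), Zwint (39.3) and Bub3 (32.7), but Bub1b came 4th at 26.5 TPM after being 10th in WT. Cenpa came 8th at 15.4 TPM after being 16th, Bub1 9th at 15.0 TPM after being 14th, and Cenpe 10th at 14.2 TPM after being 13th. TPM are not TMM-scaled, so they order genes within a library and are not used for folds. The median of the 28 called genes was 0.609 TPM in WT and 4.86 TPM in T403A, and that of the 12 others was 11.3 and 14.3 TPM. By counts, 1 of the 10 genes with the most WT reads was called (Cenpe), against 27 of the other 30. The WT count enters both the order and the fold, so this is a description and carries no test.

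**Figure D3:**
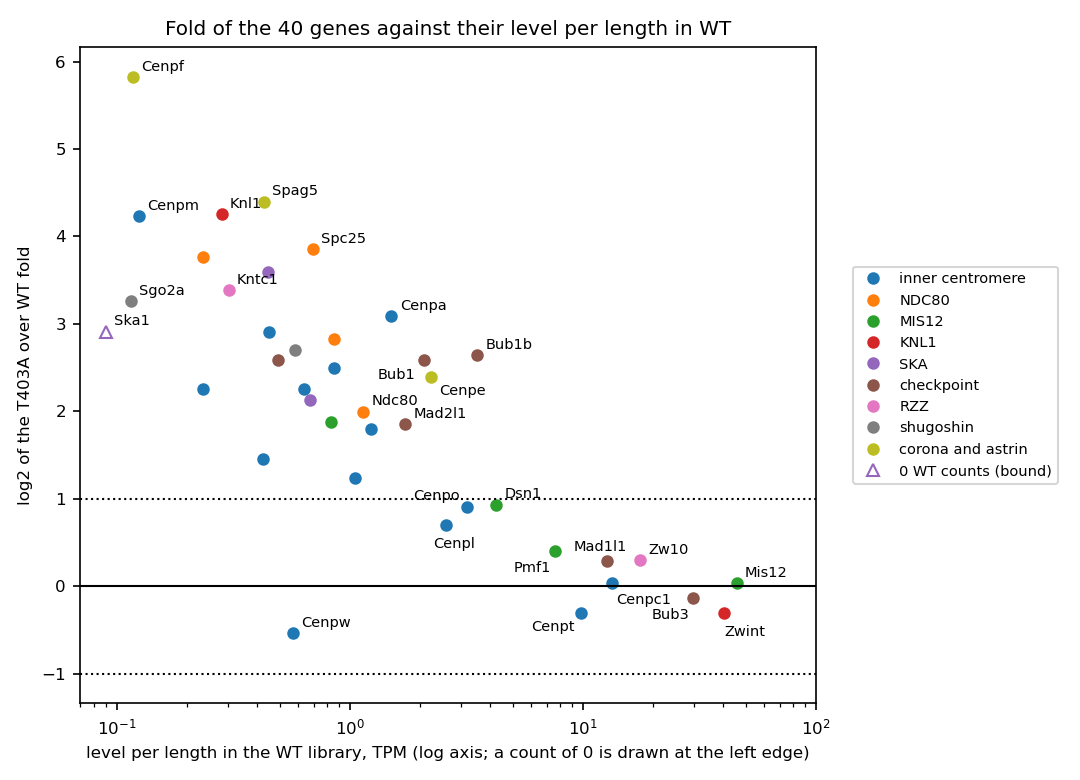
Log2 of the T403A over WT fold (TMM-scaled) against the level per length in the WT library (TPM, log axis) for the 40 genes, coloured by complex; dotted lines mark 2-fold and the triangle is Ska1 at its bound. The 8 genes from Pmf1 (7.62 TPM) to Mis12 (45.7 TPM) lie between the dotted lines, as do Cenpl, Cenpo, Dsn1 and Cenpw at lower levels.

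The pattern was set beside 5 related lists by the same rule. Of 17 other centromere and kinetochore genes 5 were higher and none lower, with a median log2 ratio of 0.43. Among the 5 were Knstrn, the astrin partner (29 and 447 counts, 11.6-fold, 7.96 to 17.5), Spdl1, which brings dynein to RZZ (109 and 397 counts, 2.74-fold), Oip5, which helps to load CENP-A (3.64-fold), and Cenps (2.86-fold). Oip5 (6 and 29 counts) and Cenps (10 and 38 counts) were named after their values were seen. The 12 genes not called included Hjurp (1.28-fold), Mis18a (1.72-fold) and Cenpx (1.16-fold), likewise named after their values were seen. The most abundant genes of that list were close to equal or modestly different: Cenpb, which binds a centromeric DNA repeat, was at 259 and 251 CPM, and the microtubule regulator Clasp2 at 60.2 and 81.1 CPM.

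Genes of the APC/C, which the checkpoint inhibits, and of cohesin, which the shugoshins protect, were called in shares of 15.8% and 13.3%, beside 7.21% of all measured genes. In the APC/C list 3 of 19 genes were higher and none lower, with a median of 0.09. These were the ubiquitin-conjugating enzyme gene Ube2c (20 and 306 counts, 11.5-fold, 7.32 to 19.1), the activator Cdc20, which the checkpoint inhibits (35 and 412 counts, 8.86-fold, 6.26 to 12.9), and the inhibitor Fbxo5 (2.11-fold), named after its value was seen. The core subunit genes Anapc1 (155 and 160 CPM) and Anapc5 (175 and 166 CPM) were not called. In the cohesin and separase list 2 of 15 were higher and none lower, with a median of 0.09. Esco2, a cohesin acetyltransferase gene, had 3 and 117 counts (29.3-fold, 9.80 to 144), and Espl1, or separase, had 52 and 326 (4.72-fold, 3.51 to 6.45), whereas the loader Nipbl was at 218 and 219 CPM and the cohesin subunit gene Stag2 at 229 and 182 CPM.

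Of the related lists, mitotic cyclins, kinases and passenger complex genes had the median nearest to that of the 40 genes, 2.13, with 12 of 13 higher. The exception was Incenp at 57.7 and 110 CPM (1.91-fold, 1.76 to 2.07). Birc5 (27.7-fold, 13.3 to 69.7) and Ccna2 (21.2-fold, 13.5 to 35.5) had the farthest bounds. In the DNA replication list 9 of 34 measured genes were higher and none lower, with a median of 0.50. Rrm2, of ribonucleotide reductase (30 and 309 counts, 7.75-fold, 5.32 to 11.7), and Pole, of DNA polymerase epsilon (22 and 140 counts, 4.79-fold, 3.04 to 7.88), were among the 9. Pcna, the replication clamp, was at 202 and 143 CPM and Rfc1, its loader's large subunit, at 62.9 and 74.3 CPM. Differences between lists were not tested, because genes of a list are not replicates and each group is 1 library.

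**Figure D4:**
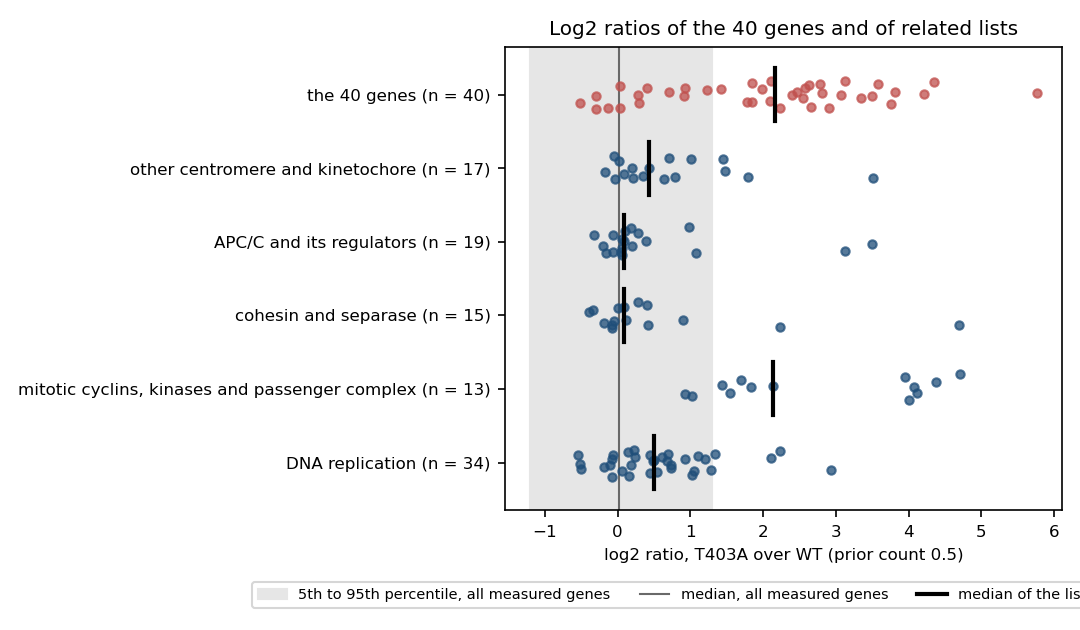
Log2 ratio of T403A over WT (prior count 0.5, Ska1 at its bound) for the 40 genes and 5 related lists, 1 point per measured gene with random vertical spread, a black bar at each list's median and a grey band from the 5th to the 95th percentile of the 11199 measured genes. The medians are 2.16 for the 40 genes and 2.13 for mitotic cyclins, kinases and passenger complex genes, and the other 4 lists lie between 0.09 and 0.50.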

How the data were processed

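RNA-seq of 2 libraries was analysed. Per the file headers, the authors deposited a read count and a length for each Ensembl gene. Named in the submitters' processing notes, without roles, are GRCm38, HISAT2, cutadapt 1.15, DESeq 1.30.0 and HTSeq 0.9.1. How RNA was selected and whether counting used strand is not given in the sources used here. Columns were matched to samples by title, and 0 columns of per-sample values were left unused. Symbols came from a table of Ensembl identifiers (21969 of 22060 matched), positions and exon overlaps from GENCODE M21 (GRCm38), whose exon union equals the deposited length for all 40 genes, and promoters from RefSeq.

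Counts were scaled with TMM (edgeR 4.0.16, R 4.3.3) to CPM. Ratios carry exact 95% Clopper-Pearson intervals (scipy 1.17.1). TPM used the deposited lengths. Log2 ratios used a prior count of 0.5. A gene was measured at a summed count of at least 20 and called at 2-fold with an interval that excluded 1. The code was tested on simulated data. The members and lists were chosen with earlier results of these data known. All 40 genes are accounted for by name. From each related list at most 4 were named by rule, the 2 called with bounds farthest from 1 and the 2 with most counts. Alternatives covered scaling, count filter, fold threshold, prior count and leaving out genes. Other list genes enter the counts and are mostly unnamed, and some items are not reported here.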

Additional observations from a re-analysis of the deposited data

How the results depend on the processing

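Each group is 1 library, so no replicate could be left out, and depth limits the genes with few WT counts (Ska1, Cenpm, Spc24, Cenpp). No paired analysis was possible because each group has 1 sample. The count of 28 higher genes was also obtained with DESeq2 size factors. Leaving out the count filter could not change it, because every gene of the list passed that filter. The count was 30 with total library size (Cenpo and Dsn1 added) and 31 at a 1.5-fold threshold. It was 18 of 29 genes at a summed count of at least 100, where fewer genes were tested. Under these alternatives 0 genes were lower. Total library size shifted log2 ratios by 0.19, gave 1122 higher and 560 lower among all measured genes against 808 and 681, and reversed the sign for Bub3, which was not called.

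The median log2 ratio was 2.35 with total library size, 2.06 with a prior count of 2, 2.23 at a summed count of at least 100 and 2.55 without the 11 genes whose exons overlap an opposite-strand gene, an alternative added after seeing the data, in which 21 of 29 genes were higher. With TMM scaling the fold of summed counts was 1.05 for KNL1, with an interval that contained 1. It was 1.20 for MIS12, 1.55 for RZZ, 1.56 for the checkpoint, 1.82 for the inner centromere and 10.8 for Cenpe, Cenpf and Spag5. With total library size the fold was 1.20 for KNL1, 1.37 for MIS12, 1.77 for RZZ, 1.78 for the checkpoint and 2.08 for the inner centromere. Without its most abundant gene it was 19.1 for KNL1 (Knl1 alone), 10.5 for RZZ (Kntc1 alone), 3.11 for the checkpoint, 1.70 for MIS12, 2.40 for the inner centromere and 36.3 for Cenpf with Spag5. Without the overlapping genes it was 1.70 for MIS12 and 2.03 for the inner centromere, and SKA, then Ska1 alone with 0 WT counts, gave no value.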
